A study of Mus musculus with 4 samples.

Results

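Endothelial nuclei were selected from single-nucleus RNA sequencing of mouse forebrain after permanent middle cerebral artery occlusion (MCAO), a stroke model in which the vessel is sealed and divided. A barcode was taken as an endothelial nucleus when it held more than 1000 unique molecular identifiers (UMIs, 1 per captured RNA molecule), and when at least 4 UMIs and at least 0.2% of its UMIs came from 7 endothelial markers, Flt1, Cldn5, Slco1a4, Mecom, Abcb1a, Ptprb and Pecam1. The rule found 156 nuclei among 8909 barcodes with more than 1000 UMIs. There were 42 in the sham control library, 7 in the day 1 library, 85 in the day 3 library and 22 in the day 7 library.

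The animals were male C57Black/6 mice of 3 months, with no allele or transgene named. Each of the 4 libraries, labelled sham control and 1 day, 3 days and 7 days after occlusion, was made from 3 forebrain hemispheres pooled while nuclei were isolated, so each group held 1 library and no difference below has a replicate check. Intervals cover counting error only, at the 95% level, and no test between groups was made. The surgical protocol names intact cortex as the control tissue while the series design names forebrain hemispheres for every time point. The study's own numbers of nuclei by time point match the deposited libraries only when day 3 and day 7 are exchanged. The deposited labels were kept, so values are given by library label and no order in time is read from them. Below, 4 values given in a row without library names are always in the order sham control, day 1, day 3, day 7.

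Brain endothelial cells line the vessels and form the blood-brain barrier. Tight junctions seal them to each other, carriers and efflux pumps in their membranes decide what crosses, and pericytes and astrocyte endfeet wrap them from outside. Along the vessel tree they take arterial, capillary and venous states. In inflamed tissue the venous cells carry the adhesion molecules that leukocytes bind, and cells at the front of a growing vessel take a tip state.

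Flt1 (a VEGF receptor), Slco1a4 (an organic anion carrier) and Cldn5 (the main tight-junction claudin of brain endothelium) gave the most UMIs of the 7 markers, with 2839, 1811 and 1586 over the 156 nuclei. Their promoters are shown because the choice of every nucleus rests on these genes. Each run holds the 250 bases before the annotated start, 5′ to 3′ on the gene's strand, as in RefSeq on GRCm38.p6. The Flt1 window is chr5:147726012-147726261 on the minus strand, the Slco1a4 window chr6:141856221-141856470 on the minus strand and the Cldn5 window chr16:18776597-18776846 on the plus strand. Capitals mark AGGAAG, which holds the core bound by ETS factors such as Erg, or ACAATG, a short form of the SOX motif, and their reverse complements where the match is on the other strand. AGGAAG was added after the longer CAGGAAG had found no match.
Flt1: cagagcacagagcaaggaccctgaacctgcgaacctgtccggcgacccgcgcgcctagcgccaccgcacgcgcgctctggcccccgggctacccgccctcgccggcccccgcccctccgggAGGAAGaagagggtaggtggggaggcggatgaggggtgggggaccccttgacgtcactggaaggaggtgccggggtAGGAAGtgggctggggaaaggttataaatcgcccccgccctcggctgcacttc
Slco1a4: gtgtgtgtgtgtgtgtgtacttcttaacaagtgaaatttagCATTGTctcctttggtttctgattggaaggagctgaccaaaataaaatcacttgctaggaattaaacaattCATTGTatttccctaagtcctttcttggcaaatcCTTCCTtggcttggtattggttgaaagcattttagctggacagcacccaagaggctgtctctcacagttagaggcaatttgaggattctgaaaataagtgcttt
Cldn5: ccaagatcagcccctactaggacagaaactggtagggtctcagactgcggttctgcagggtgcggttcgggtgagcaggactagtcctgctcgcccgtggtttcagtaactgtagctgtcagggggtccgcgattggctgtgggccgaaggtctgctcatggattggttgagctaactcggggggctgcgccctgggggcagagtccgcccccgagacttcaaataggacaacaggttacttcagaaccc
Sequence was at hand for 5 of the 7 markers in 6 windows, since Mecom has 2 starts, and not for Ptprb and Pecam1. AGGAAG stood in 3 of the 6 windows, those of Flt1, Slco1a4 and Abcb1a, against 29.5% of all 32851 promoter windows. ACAATG stood in 1 of the 6, that of Slco1a4, against 10.7% of all windows. The longer CAGGAAG, which contains AGGAAG, and the GATA motif AGATAA stood in none of the 6, against 10.8% and 9.99% of all windows. The Abcb1a window lies well before the gene's start in the GENCODE vM21 annotation. These are matches of letters, not binding sites.

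The endothelial nuclei made up 1.89% of barcodes with more than 1000 UMIs in the sham control library (exact binomial interval 1.36% to 2.54%), 0.582% in the day 1 library (0.234% to 1.2%), 2.28% in the day 3 library (1.82% to 2.81%) and 1.26% in the day 7 library (0.791% to 1.9%). The interval of day 1 lay below those of sham control and day 3 and overlapped that of day 7. That order depended on which nuclei and which depth were counted. When nuclei that also passed the rule of another cell class were left out, 7, 3, 16 and 1 nuclei remained, shares of 0.314%, 0.249%, 0.428% and 0.0573%, so that day 7 was lowest and the interval of day 1 (0.0515% to 0.727%) spanned the sham control value. Among barcodes with more than 500 and at most 1000 UMIs, the sham control share was 1.86% (0.606% to 4.28%) and those of day 1, day 3 and day 7 were 0.0242% (0.000612% to 0.135%), 0.265% (0.132% to 0.474%) and 0.253% (0.0306% to 0.91%). These shares are 5 of 269, 1 of 4137, 11 of 4149 and 2 of 791 barcodes. Day 3 thus lay below sham control in share among these shallow barcodes, though not in number, since it held many more of them. How many shallow barcodes hold nuclei was not tested. Because the marker rule chose the nuclei within tissue that was pooled, a smaller share of endothelial cells and fewer nuclei recovered per cell cannot be told apart. The nuclei held 166404, 45765, 596309 and 148411 UMIs, with medians of 2500, 4913, 3729 and 4800 UMIs per nucleus. The deepest single nucleus supplied 9.74% of the sham control UMIs, 28.9% of day 1, 15.8% of day 3 and 16.5% of day 7. The libraries held 23285489 to 42963698 UMIs in all. They shared 11 barcodes with more than 1000 UMIs, and no barcode was an endothelial nucleus in more than 1 library.

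The selection was wide of its limits for most nuclei. The median nucleus carried 33.5 marker UMIs in sham control, and 59, 48 and 52 in the day 1, day 3 and day 7 libraries, and the share of marker UMIs ran from 0.236% to 2.66%. Just inside the limit of 0.2% were 2, 0, 3 and 2 nuclei with a share under 0.3%, in the order sham control, day 1, day 3, day 7. Just outside were 3, 0, 4 and 4 barcodes with at least 4 marker UMIs and a share from 0.1% to 0.2%. In all other barcodes the markers took between 0.00159% and 0.00266% of UMIs.

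Markers of other cells were present and differed between libraries. The summed level of the neuron markers in the endothelial nuclei was 1142 CPM (UMIs of the gene or list for each 1000000 UMIs summed) among sham control nuclei, against 2469, 3052 and 1900 in those of day 1, day 3 and day 7, and the same 0.2% rule for neurons was passed by 10, 1, 20 and 6 nuclei. In droplets with at most 1000 UMIs, which carry free RNA, that level was between 7709 and 8693 CPM, so at most 13.4%, 32%, 35.1% and 22.8% of the UMIs of the endothelial nuclei could be free RNA of this make-up. The same limit was 10.1%, 8.38%, 9.67% and 5.5% in the unmixed nuclei defined below, and 7.04%, 4.67%, 9.06% and 4.48% in all endothelial nuclei when choroid plexus markers took the place of neuron markers. Mural cell markers other than Rgs5 and Vtn (Pdgfrb, Atp13a5, Abcc9, Kcnj8, Notch3) stood at 1358, 0, 614 and 1267 CPM. The rule of all 7 mural markers was passed by 99 of the 156 nuclei and that of these 5 by 33, while 82 nuclei held none of the 5. Rgs5 and Vtn, which is also known from pericytes, were set apart after their values were seen, since Rgs5, a regulator of G-protein signalling known from pericytes, was also high in nuclei that failed the rule of the other mural markers (3318, 2951, 2120 and 3008 CPM in the unmixed nuclei). Smooth muscle, fibroblast, peripheral myeloid and ependymal rules were passed by no nucleus, and Lyz2 and the other peripheral myeloid markers were all at 0 in the sham control and day 1 nuclei. No doublet caller was run.

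Values are therefore also given for the unmixed nuclei, those that passed the rule of none of the 11 other classes once Rgs5 and Vtn were taken from the mural list. They numbered 21, 6, 46 and 9, a choice made after the values were seen. As shares of barcodes these are 0.943%, 0.499%, 1.23% and 0.516%, and the intervals of sham control (0.585% to 1.44%) and day 1 (0.183% to 1.08%) overlapped. Their neuron markers lay between 458 and 858 CPM in the 4 libraries. Their mural markers still stood at 99, 0, 447 and 818 CPM. The part of this admixture in any single result below was not tested.

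The labelled cell type was borne out by genes that the rule did not name, though every gene was counted in nuclei that were chosen on linked markers, so the contrast is a description. Of 8175 genes with at least 20 UMIs in at least 10 endothelial nuclei, 1101 were at least 4-fold higher than in the other barcodes of the sham control, day 3 and day 7 libraries alike, which is 13.5%. Of 35 further endothelial genes fixed as a list, 34 were. The exception was Shank3, a scaffold of synapses as well as of endothelium, at 1.58-fold. The median ratio of the 35 was 191-fold, against 1.35-fold over the 8175 genes.

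The 7 markers of the rule stood between 248-fold (Pecam1) and 914-fold (Flt1) above the other barcodes, values that the choice of nuclei fixed. With these left out, the 15 genes with the largest ratio held the transcription factors Foxq1 (827-fold), Sox17 (766-fold), Zfp366 (652-fold) and Gata2 (639-fold). Foxq1 stood at 264, 175, 146 and 289.7 CPM, and at no more than 0.391 CPM in other barcodes. A Foxq1 UMI was found in 57.1% of the sham control endothelial nuclei with a median depth of 2500 UMIs, and in 0.118% of the sham control neurons with a median depth of 7784. Sox17, which is best known from arterial endothelium, stood at 300.5, 306, 159 and 303 CPM. Adgrl4 and Adgrf5, adhesion receptors of endothelium, were 726-fold and 474-fold higher, Tie1, a receptor of the angiopoietin pathway, 469-fold, and the surface antigens Ly6c1 and Ly6a 513-fold and 454-fold. Ly6a and Ly6c1 belong to a family of like sequences, so their split of reads is uncertain. Rgs5 was 717-fold higher, at 2836, 2098, 1399 and 2358 CPM, and the chemokine Cxcl12 477-fold. The others were Wfdc1, She, Gm694 and 4930578C19Rik.

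**Figure D1:**
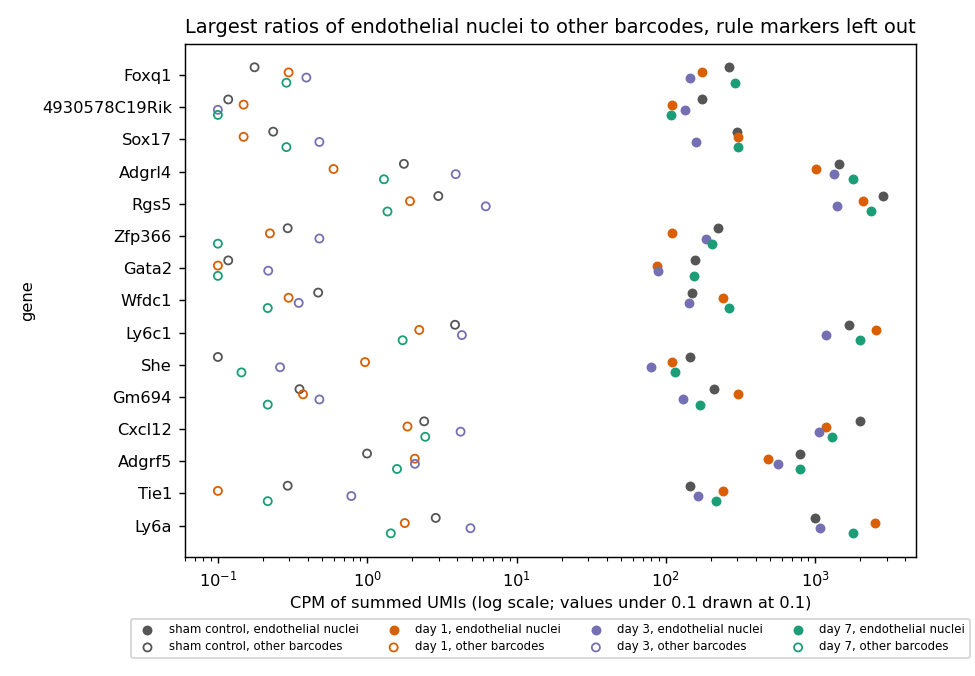
Level (CPM of summed UMIs, log scale) of the 15 genes with the largest ratio once the 7 rule markers were left out, in endothelial nuclei (filled) and in all other barcodes (open), coloured by library, with values under 0.1 drawn at 0.1. The lowest filled point is She at day 3 (78.8 CPM) and the highest open point Rgs5 at day 3 (6.21 CPM).

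The levels of the genes that chose the nuclei are a description only. Flt1 stood at 3996, 4064, 2475 and 3450 CPM. Cldn5 stood at 1905, 2447, 1573 and 1476 CPM, Slco1a4 at 2278, 2098, 1726 and 2069, and Abcb1a, the P-glycoprotein efflux pump, at 1172, 1158, 862 and 1017. Mecom, a transcription factor gene that overlaps other annotated genes, was the only one of the 7 above its sham control level at day 3, at 1136, 1027, 1425 and 1226 CPM. Summed, the 7 markers took 12542 CPM in both the sham control and the day 1 nuclei, 9743 at day 3 and 11327 at day 7. All 7 stayed within 2-fold of sham control in every library.

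The comparison with sham control asks how the endothelial transcriptome differed after the artery was closed. Of genes with at least 20 UMIs over both sums, 8.23% of 2563 were at least 2-fold higher and 12.4% at least 2-fold lower at day 1, 10.8% of 7275 were higher and 5.28% lower at day 3, and 5.23% of 3768 were higher and 6.24% lower at day 7. Median log2 ratios over all such genes were -0.08, -0.01 and -0.03. The 3 comparisons share the sham control sum. Which direction held more genes depended on the processing. At day 3, 359 genes were higher and 1722 lower after free RNA was subtracted, and 64 were higher and 145 lower of 1253 without nuclei of another class. At day 1, 265 were higher and 226 lower of 2156 without the deepest nucleus of each library, and at day 7, 225 were higher and 206 lower with TMM scaling. No majority in either direction is therefore read from these counts. Of the 784 genes higher at day 3, 324 had at most 3 UMIs in the sham control nuclei, so they reached the minimum of 20 through the day 3 nuclei and could hardly be counted unless higher there. Their number is given beside the lists below and nothing is read from it.

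For the summed junction genes the day 1, day 3 and day 7 ratios to sham control were 1.04 (0.9 to 1.19), 0.882 (0.818 to 0.951) and 0.9 (0.816 to 0.993). In unmixed nuclei they were 1.03 (0.869 to 1.22), 0.959 (0.857 to 1.075) and 0.853 (0.74 to 0.983). Without the nucleus with most junction UMIs of each library day 3 was 0.96 (0.887 to 1.04) and day 7 0.818 (0.733 to 0.913). The day 3 interval held 1 with either choice, both made after the values were seen. At day 3, 0 of 15 measured genes were past 2-fold in either direction and the median log2 ratio was -0.18, and at day 7 likewise 0 of 15 with a median of -0.19. At day 1, 2 of 14 were higher and 0 lower. With 14 or 15 genes these counts cannot be set apart from the shares over all genes. The higher ones were Esam, an adhesion molecule of endothelial contacts, and Lsr, the angulin of tricellular junctions. Esam stood at 234, 503, 275 and 445 CPM, a ratio of 2.14 (1.22 to 3.68) at day 1. Lsr stood at 210, 459, 191 and 243 CPM, a ratio of 2.18 (1.21 to 3.85) at day 1.

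Among carriers the glucose transporter Slc2a1 (chr4:119108711-119137983, plus strand) was highest at day 1. It stood at 1653, 3321, 1392 and 2547 CPM, the last 3 from 7 of 7, 73 of 85 and 22 of 22 nuclei. The ratio to sham control was 2.01 (1.64 to 2.46) at day 1, 0.842 (0.734 to 0.969) at day 3 and 1.54 (1.32 to 1.81) at day 7, and in unmixed nuclei 1.94, 0.843 and 1.37. Day 1 and day 7 were above sham control and day 3 was below it. Slc2a1 was the only 1 of 23 measured transporter genes past 2-fold upward at day 1, while 4 were past 2-fold downward, Abcc4, Slc16a1 and Slc30a1 among them. Over all genes these shares were 8.23% and 12.4%, and counts this small cannot be set apart from them. Abcc4, an efflux pump, stood at 553, 218, 412 and 593 CPM. At day 3 0 of 30 were higher and Slc27a1, a fatty acid carrier, alone was past 2-fold lower, against 10.8% and 5.28% of all genes. The median log2 ratio of the 30 was -0.31. At day 7 0 of 25 were past 2-fold in either direction, against 5.23% higher and 6.24% lower over all genes, with a median of 0.12. The summed transporters were 0.754 (0.717 to 0.793) of sham control at day 3.

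Genes of vesicle traffic, through which proteins cross the endothelium, had 1 of 7 higher at day 1 (Cav2, a caveolin, 174 CPM in sham control and 350 at day 1) and 1 lower (Picalm), and 0 past 2-fold among 11 at day 3 and 10 at day 7. Over all genes 8.23% were higher and 12.4% lower at day 1, and counts this small cannot be set apart from these shares.

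The list of VEGF and angiopoietin receptors and ligands, with plexins, had no gene past 2-fold at day 1 (0 of 5) or day 7 (0 of 7). At day 3, 2 of 10 were, upward, against 10.8% of all genes. Plxnd1, a semaphorin receptor of endothelium, had 3 UMIs in the sham control nuclei, 2 at day 1, 42 in 20 nuclei at day 3 and 12 at day 7, a ratio of 3.91 (1.25 to 19.7) at day 3. Vegfc, the ligand best known for lymphatic growth, had 4, 0, 34 and 2 UMIs, of which 16 at day 3 came from 1 nucleus, and its interval of 0.846 to 9.2 at day 3 held 1. Kdr, the main VEGF receptor, stood at 348, 350, 231 and 270 CPM, within 2-fold throughout.

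Notch genes were past 2-fold lower in 2 of 11 at day 3, Jag2 and Heyl, and in 1 of 4 at day 1, Maml3. Over all genes 5.28% were lower at day 3 and 12.4% at day 1, and counts this small cannot be set apart from these shares. The summed Notch ratio was 0.735 (0.614 to 0.884) at day 3, and 0.905 (0.666 to 1.25) in unmixed nuclei. At day 7 it was 1.175 (0.945 to 1.46), and 1.695 (1.21 to 2.39) in unmixed nuclei. Jag2, a ligand of arterial endothelium, stood at 144, 262, 40.2 and 108 CPM. Its ratio at day 3 was 0.279 (0.152 to 0.513), and 0.289 (0.132 to 0.64) in unmixed nuclei, so that day 3 lay below both the sham control and the day 1 library. Heyl, a target of Notch that mural cells also use, had 10 UMIs in the sham control nuclei and none of them in unmixed ones. Wnt genes, which keep the barrier state, had 0 of 18 past 2-fold at day 3. Fzd6 was the 1 lower of 13 at day 1, and Fzd6 and Reck were the 2 lower of 16 at day 7. Of all genes 12.4% were lower at day 1 and 6.24% at day 7, and these counts cannot be set apart from those shares. Lef1, a transcription factor of that pathway, stood at 541, 787, 468 and 674 CPM. TGF-beta and BMP genes had 1 of 11 lower at day 1 (Tgfbr3), 1 of 15 lower at day 3 (Smad6) and 0 of 15 past 2-fold at day 7. These counts too cannot be set apart from the shares over all genes.

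Genes of capillaries, arteries and veins were counted as separate lists. The capillary list had 0 of 9 genes past 2-fold at day 3, yet all 9 were below sham control and the summed ratio was 0.647 (0.601 to 0.696), and 0.67 in unmixed nuclei. A lower sum at day 3 was not particular to this list. The 35 further endothelial genes stood at 0.832 (0.794 to 0.871), and 0.851 (0.798 to 0.907) in unmixed nuclei. The 7 rule markers stood at 0.777 and the transporters at 0.754. At day 1 the summed capillary ratio was 0.762 (0.656 to 0.882), and 0.714 (0.602 to 0.843) in unmixed nuclei. Without the nucleus with most capillary UMIs of each library it was 0.662 (0.553 to 0.789), and without the deepest nucleus of each its log2 value was 0.023. At day 1, 1 of 9 capillary genes was past 2-fold lower, Slc16a1, a lactate carrier, against 12.4% of all genes. The arterial list had 2 of 3 lower at day 1 (Mgp and Tgfb2), against 12.4% of all genes. It had 5 of 11 lower and 1 higher at day 3, against 5.28% and 10.8% of all genes, with a summed ratio of 0.596 (0.497 to 0.715). In unmixed nuclei that ratio was 0.976 (0.72 to 1.34), so the lower sum was not seen there. At day 1 the summed arterial ratio was 0.508 (0.32 to 0.774), and 0.69 (0.391 to 1.17) in unmixed nuclei. At day 7 it was 1.12 (0.906 to 1.39), and 1.99 (1.44 to 2.79) in unmixed nuclei, with 57 of 179 UMIs in 1 nucleus. Without the highest nucleus of both libraries that unmixed ratio was 1.41 (0.95 to 2.11). Of the 5 genes lower at day 3, Alpl, an alkaline phosphatase, had 13, 0, 8 and 8 UMIs, a day 3 ratio of 0.172 (0.0617 to 0.447), and 0.211 (0.051 to 0.83) in unmixed nuclei. Bmx, Sema3g, Gja4 and Stmn2 were the others, and Sema3g stood at 1.44 times sham control in unmixed nuclei.

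The venous list was summed at 1220, 1486, 1737 and 1590 CPM, ratios of 1.22 (0.911 to 1.61), 1.42 (1.22 to 1.66) and 1.3 (1.08 to 1.58). In unmixed nuclei these were 1.76 (1.24 to 2.48), 1.69 (1.32 to 2.19) and 0.746 (0.525 to 1.06), so the day 7 value lay on the other side of 1. In each library 1 nucleus carried much of the sum, with 46 of 68 venous UMIs at day 1, 252 of 1036 at day 3 and 82 of 236 at day 7. In sham control it was 33 of 203. Without the highest nucleus of both libraries compared, a choice made after the values were seen, the ratios were 0.58 (0.354 to 0.906), 1.23 (1.04 to 1.46) and 1.02 (0.811 to 1.27). The day 1 interval then lay below 1, that of day 3 above 1, and that of day 7 held 1. In unmixed nuclei with the same choice they were 0.971 (0.563 to 1.62), 1.65 (1.24 to 2.23) and 0.547 (0.333 to 0.878). At day 3, 3 of 10 genes were past 2-fold higher and 0 lower, against 10.8% and 5.28% of all genes. The 3 were Il1r1, Ackr1 and Lcn2, of which Ackr1 and Lcn2 had at most 3 sham control UMIs. The day 3 nucleus, of 22065 UMIs with 235 marker UMIs, carried 252 venous and 16 arterial UMIs. It supplied 53 of the 73 UMIs of Ackr1, the atypical chemokine receptor of venules, 67 of the 219 of the interleukin-1 receptor Il1r1, 13 of the 25 of Lcn2, a secreted lipocalin, and 18 of the 47 of Vcam1, the leukocyte adhesion molecule. It was not among the unmixed nuclei. Outside it, Ackr1 was found with at most 5 UMIs in any nucleus, the gene overlaps Cadm3 on the same strand, and low-count droplets carried it at 34.3 to 44.2 CPM in each library.

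Il1r1 (chr1:40225080-40317257, plus strand) had 18 UMIs in 7 of the sham control nuclei, 20 in a single day 1 nucleus, 219 in 25 day 3 nuclei and 53 in 5 day 7 nuclei. These are 108, 437, 367 and 357 CPM, and the ratios were 4.04 (2.03 to 8.1) at day 1, 3.4 (2.1 to 5.84) at day 3 and 3.3 (1.9 to 5.99) at day 7. The value of day 1 is that of 1 nucleus out of 7, and 38 of the 53 UMIs of day 7 also came from 1. In unmixed nuclei the ratio was 7.41 (2.82 to 27.6) at day 3 and 2.31 (0.684 to 9.94) at day 7. In low-count droplets Il1r1 stood at no more than 8.37 CPM.

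Adhesion and inflammation genes were past 2-fold higher in 6 of 16 at day 3, with 0 lower, against 10.8% and 5.28% of all genes, and their median log2 ratio was 0.39 against -0.01. Beside Il1r1, Ackr1 and Lcn2 these were Il6ra, Csf1 and Litaf. Of the 6, 4 (Ackr1, Lcn2, Il6ra and Csf1) had at most 3 sham control UMIs and met the minimum through day 3. Csf1, a growth factor of macrophages, had 2, 0, 31 and 3 UMIs, and Il6ra, the interleukin-6 receptor, 3, 2, 28 and 3. Lcn2 stood at 41.9 CPM in the day 3 nuclei and 36.5 CPM in the day 3 low-count droplets. At day 1, 2 of 7 were higher (Il1r1 and Cebpd) and 1 lower (Il6st), against 8.23% and 12.4% of all genes. At day 7, 2 of 9 were higher, Il1r1 and the chemokine Cxcl1, and Cebpd was lower, against 5.23% and 6.24% of all genes. All 21 Cxcl1 UMIs of day 7 lay in 1 nucleus. Vcam1, with 12, 0, 47 and 5 UMIs, could be measured at day 3 only, where its ratio was 1.09 (0.571 to 2.26). Icam1, another adhesion molecule, had 2, 1, 9 and 3 UMIs, too few for a ratio to be counted.

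Interferon and MHC genes had 1 of 9 higher at day 1, Ifitm2, and 2 lower, Ifi27 and Isg15, against 8.23% and 12.4% of all genes. Ifitm2, an antiviral membrane protein, stood at 126, 393, 169 and 142 CPM. At day 3, 1 of 14 was lower (Bst2, 114 CPM in sham control, with 10 of 19 UMIs in 1 nucleus, and 47 at day 3) and 0 higher, and at day 7 0 of 12 were past 2-fold. Of all genes 5.28% were lower and 10.8% higher at day 3. Counts this small cannot be set apart from the shares over all genes.

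The vessel matrix list had 3 of 27 genes higher (2 of them with at most 3 sham control UMIs) and 1 lower at day 3, and 1 of 20 higher at day 7. At day 1, 1 of 16 was higher (Mmrn2, with 5 of 9 UMIs in 1 nucleus) and 1 lower (Itga1). Adamts9, a secreted protease, had 6 UMIs in 5 sham control nuclei, 9 in 3 at day 1, 94 in 22 at day 3 and 18 in 3 at day 7. The ratio was 5.45 (1.73 to 18.6) at day 1, 4.37 (1.94 to 12.2) at day 3 and 3.36 (1.28 to 10.4) at day 7, so each library lay above sham control, and 12 of the 18 UMIs at day 7 came from 1 nucleus. Lamb1, a laminin chain, was also among the genes higher at day 3, and Itga4 was the lower one. The basement membrane collagens Col4a1 and Col4a2, whose genes overlap at their starts, were within 2-fold. Col4a1 stood at 409, 612, 532 and 364 CPM, and in unmixed nuclei its ratio at day 3 was 1.91 (1.25 to 3.02).

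Among tip-cell genes 2 of 9 were past 2-fold higher at day 3 and 0 lower, against 10.8% and 5.28% of all genes. The 2 were Plaur, the urokinase receptor, and Lamb1, and both had at most 3 sham control UMIs. The summed list was 1.04 (0.84 to 1.28) times sham control at day 3, and 1.3 (0.961 to 1.79) in unmixed nuclei. Apln, a peptide of growing vessels, had no UMI in the sham control and day 1 nuclei, 18 in 6 nuclei at day 3 and 5 in 3 at day 7, under the 20 UMIs that the count needs. An unmixed day 3 nucleus of 31706 UMIs carried 66 tip-list UMIs and the most UMIs in the library of Adamts9 (31 of 94) and Plaur (13 of 23). Shallower nuclei held a larger part of their UMIs in the tip list. These included an unmixed day 3 nucleus with 32 of 9382 and a day 7 nucleus, not unmixed, with 22 of 5103.

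The summed stress list was highest at day 1. Of 18 measured genes 4 were past 2-fold higher and 2 lower (Jun and Edn1), against 8.23% and 12.4% of all genes, with a median log2 ratio of 0.49 against -0.08 over all genes and a summed ratio of 1.36 (1.2 to 1.53), or 1.61 (1.4 to 1.86) in unmixed nuclei. The list was also higher outside them at day 1, at 2147, 3396, 2477 and 2014 CPM in low-count droplets and 811, 1227, 1117 and 811 CPM in the other barcodes. The part of this in the endothelial values was not tested. Cdkn1a (chr17:29090976-29100727, plus strand), the p21 inhibitor of the cell cycle, had 7 UMIs in 7 of 42 sham control nuclei, 15 in 5 of 7 at day 1, 51 in 26 of 85 at day 3 and 26 in 10 of 22 at day 7. These are 42.1, 328, 85.5 and 175 CPM. The ratio was 7.79 (2.99 to 22.6) at day 1, 2.03 (0.919 to 5.31) at day 3 and 4.17 (1.76 to 11.4) at day 7, and 9.31, 2.62 and 4.2 in unmixed nuclei. The day 1 and day 7 intervals lay above 1 and that of day 3 held 1. Low-count droplets of day 1 carried Cdkn1a at 47.1 CPM.

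Tsc22d3, a leucine zipper protein that glucocorticoids induce, stood at 90.1, 350, 149 and 249 CPM, ratios of 3.88 (1.8 to 8.42), 1.66 (0.952 to 3.08) and 2.77 (1.48 to 5.42). Sgk1, a kinase, stood at 78.1, 262, 116 and 53.9 CPM, and low-count droplets carried it at 155 to 204 CPM, above the nuclei of every library but day 1. Hif1a, the oxygen-sensing factor, was the other gene higher at day 1, at 114 and 240 CPM with an interval of the ratio (0.905 to 4.66) that held 1. At day 3, 3 of 23 stress genes were higher, Cdkn1a, Fkbp5 and Zbtb16, against 10.8% of all genes, and Fkbp5 had at most 3 sham control UMIs. A count this small cannot be set apart from that share. Zbtb16, a transcription factor, stood at 144, 197, 374 and 249 CPM, a ratio of 2.59 (1.7 to 4.13) at day 3 and 1.86 (1.01 to 3.73) in unmixed nuclei.

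The flow-responsive factors Klf2 and Klf4 were lower at day 7, and Klf4 also at day 3, past 2-fold. Klf2 stood at 1004, 1136, 527 and 485 CPM, ratios of 1.13 (0.813 to 1.55), 0.525 (0.433 to 0.637) and 0.483 (0.362 to 0.641). In unmixed nuclei the ratios of day 3 and day 7 were 0.756 (0.572 to 1.01) and 0.667 (0.458 to 0.967), so the size of the difference depended on which nuclei were summed. Klf4 stood at 204, 393, 83.8 and 101 CPM, though 72.2% of the day 1 UMIs came from 1 nucleus. Ndrg1, a gene induced by low oxygen, was 2.01 (1.46 to 2.79) times sham control at day 7, from 373 to 748 CPM, with Cdkn1a and Tsc22d3 the other 2 higher of 18 at that time. The 3 higher and 2 lower of these 18 stand against 5.23% and 6.24% of all genes.

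**Figure D2:**
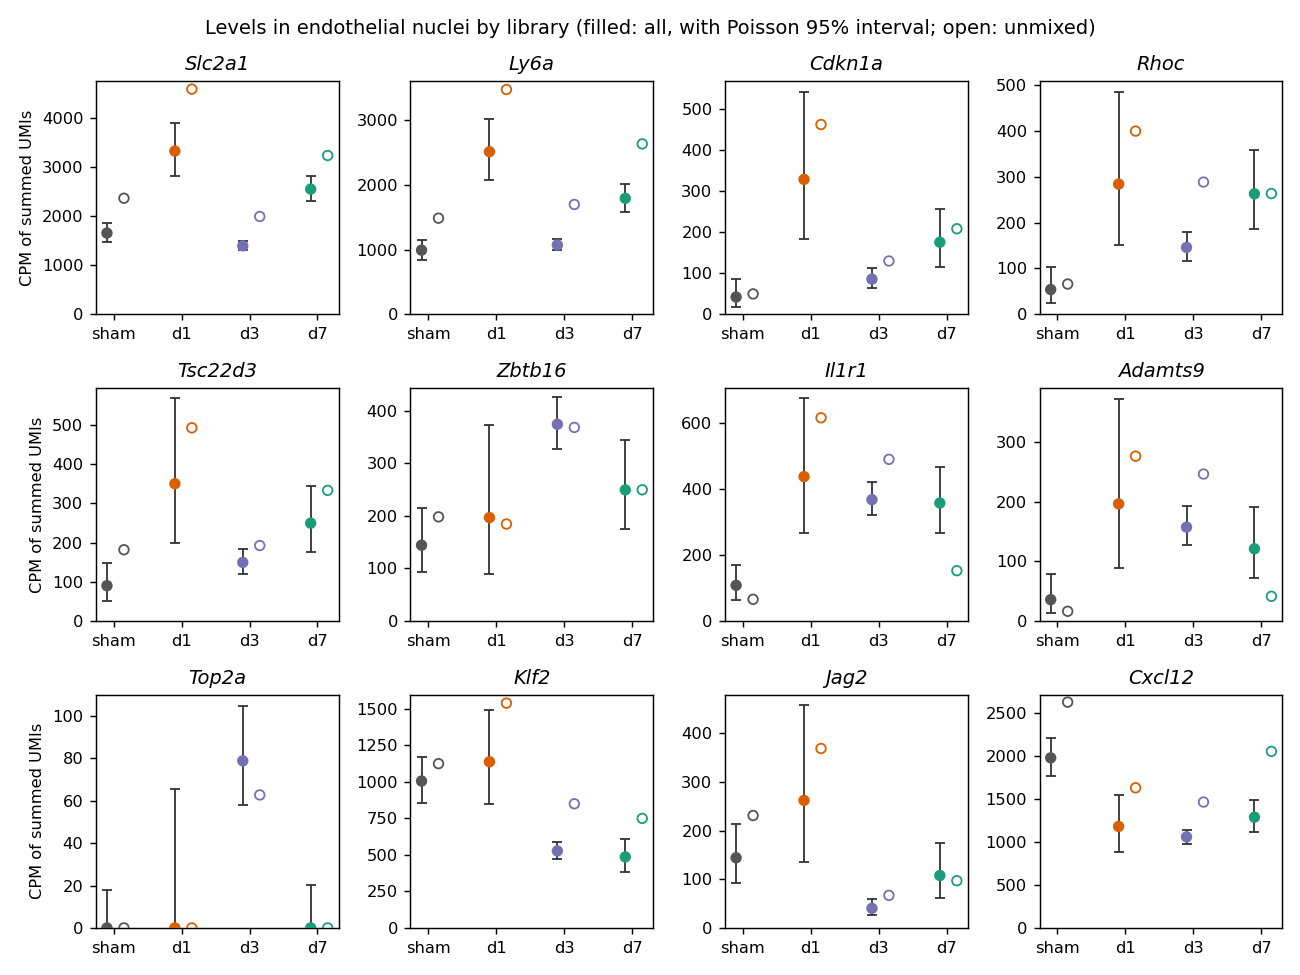
Level (CPM of summed UMIs, linear scale from 0) of 12 named genes in endothelial nuclei of the sham control, day 1 (d1), day 3 (d3) and day 7 (d7) libraries. Filled points are all endothelial nuclei with exact Poisson 95% intervals (a level of 0 has a bar up to 3 UMIs) and open points the unmixed nuclei; Slc2a1 and Cdkn1a were highest at day 1, Top2a had UMIs in the day 3 nuclei and none in those of the other libraries, and Klf2 was lower at day 3 and day 7 than in sham control.

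The summed cell-cycle genes were highest at day 3. Of the 23 proliferation genes found in the files 5 had the 20 UMIs needed at day 3 and none had them at day 1 or day 7. Of the 5, 4 were past 2-fold higher, Mki67, Top2a, Cenpp and Anln, against 10.8% of all genes. All but Cenpp had at most 3 sham control UMIs and met the minimum through day 3, so the count was largely set by that minimum. Top2a, which untangles replicated DNA, had no UMI in the sham control, day 1 and day 7 nuclei and 47 in 8 nuclei at day 3, at least 4.37-fold higher with the sham control sum set at 3 UMIs. Mki67, the Ki-67 antigen of dividing cells, had 25 in 6 nuclei at day 3 and none elsewhere, where a count of 0 allows, at 3 UMIs, levels of up to 18, 65.6 and 20.2 CPM in the sham control, day 1 and day 7 nuclei. The summed list stood at 192, 175, 612 and 94.3 CPM, a ratio of 3.18 (2.22 to 4.72) at day 3 and of 2.12 (1.26 to 3.82) in unmixed nuclei. Without the nucleus with most of its UMIs in both libraries the ratio was 2.87 (1.94 to 4.39), and 1.72 (0.951 to 3.37) in unmixed nuclei, where the interval held 1. Low-count droplets carried the list at 144, 163, 239 and 192 CPM.

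The UMIs were gathered in few nuclei. At day 3, 6 of 85 nuclei held more than 10 proliferation UMIs each, with 75, 72, 53, 41, 31 and 16, and together 78.9% of the list's UMIs. The highest number in a nucleus of any other library was 5. These 6 were deep, from 6612 to 93996 UMIs. Among nuclei with at least 5000 UMIs, the list took up to 0.469% of a nucleus's UMIs at day 3 (29 nuclei), and up to 0.0445% among 10 sham control nuclei, 0% among 3 nuclei of day 1 and 0.0208% among 11 of day 7. Below that depth, an unmixed day 3 nucleus with 5 endothelial marker UMIs held 8 proliferation UMIs of 1467, a larger part than in any deeper nucleus. Of the 6 nuclei 2 were unmixed, with 53 and 41 proliferation UMIs and 154 and 256 endothelial marker UMIs. The nucleus of 93996 UMIs also held 606 neuron, 159 oligodendrocyte and 76 astrocyte marker UMIs, that of 27426 UMIs held 229 neuron marker UMIs, and that of 9942 UMIs held 33 microglia marker UMIs. The nucleus of 6612 UMIs held 18 UMIs of the 5 mural markers beside 16 endothelial marker UMIs (0.242% of its UMIs) and no capillary UMI. Low-count droplets carried Top2a at 15.5 CPM at day 3 and between 2.35 and 5.01 CPM in the other libraries.

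**Figure D3:**
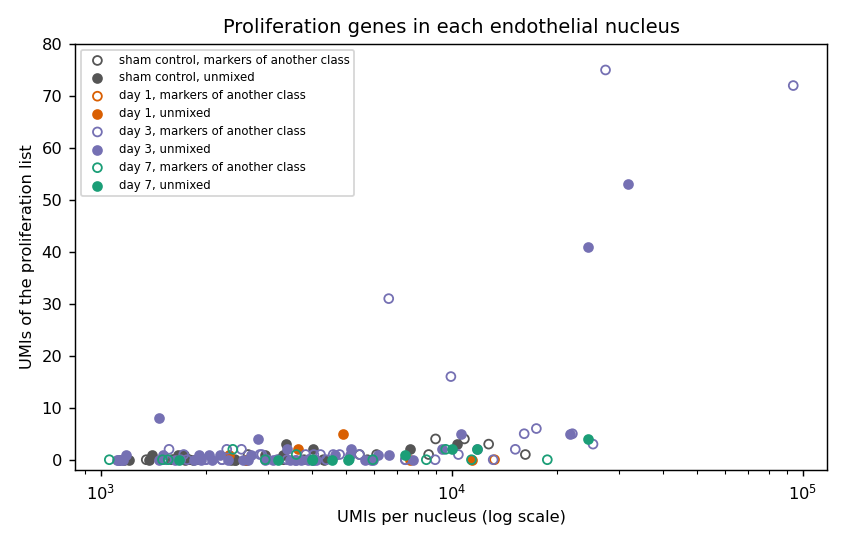
UMIs of the proliferation list (vertical axis) against all UMIs (horizontal axis, log scale) of each of the 156 endothelial nuclei, coloured by library, filled where unmixed. The 6 nuclei above 10 UMIs all belong to the day 3 library and 2 of them are unmixed.

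The general endothelial list held 35 genes. At day 1, 2 of 30 were higher, Esam and Ly6a, and Zfp366 was lower, against 8.23% and 12.4% of all genes. Ly6a, the Sca-1 antigen, stood at 992, 2513, 1072 and 1792 CPM. Its ratio was 2.53 (1.98 to 3.23) at day 1, 1.08 (0.909 to 1.29) at day 3 and 1.81 (1.48 to 2.21) at day 7, so day 3 was close to sham control and the other libraries were above it. At day 3, 1 of 34 was higher (Ecscr) and 0 lower, against 10.8% and 5.28% of all genes. Of the 34, 8 were above sham control at day 3, and the summed ratio was 0.832 (0.794 to 0.871). At day 7, 1 of 32 was higher, Sox18 with 156 CPM in sham control and 364 at day 7, and 1 lower, Erg with 421 and 175 CPM and a ratio of 0.417 (0.255 to 0.662). The shares over all genes at day 7 were 5.23% and 6.24%. Cxcl12 was within 2-fold but below sham control in each library, with ratios of 0.597 (0.439 to 0.798) at day 1, 0.535 (0.468 to 0.613) at day 3 and 0.651 (0.542 to 0.78) at day 7.

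**Figure D4:**
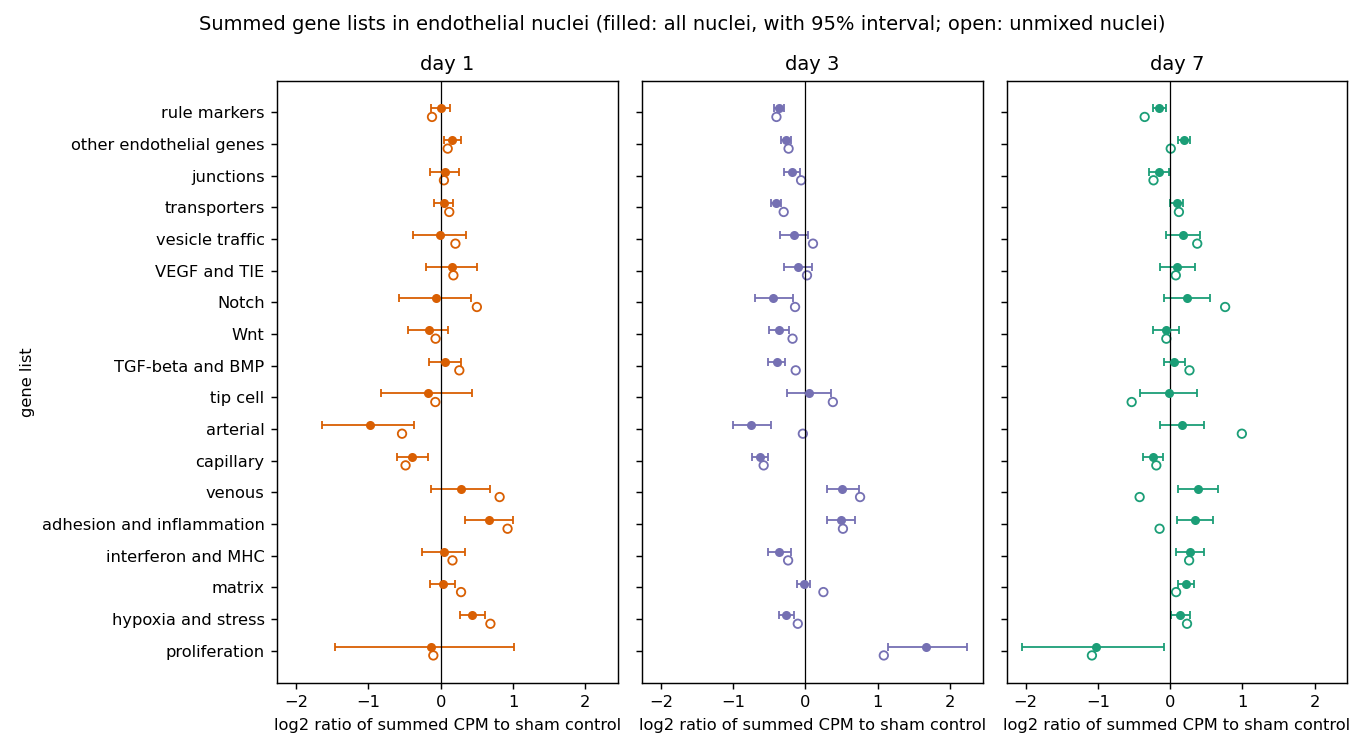
Log2 ratio of the summed CPM of each gene list to the sham control library, for day 1, day 3 and day 7. Filled points are all endothelial nuclei with exact 95% intervals for counting error and open points the unmixed nuclei; the proliferation list at day 3 lies farthest to the right, and the capillary list lies left of 0 in each panel.

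Genes were also ranked regardless of lists, among those with a UMI in at least 5 nuclei (3 for day 1) and at most 50% of their UMIs in 1 nucleus. The largest ratios upward at day 1 were then those of Cdkn1a, Rhoc and Hmgn1. Rhoc, a small GTPase of the cytoskeleton, had 9, 13, 87 and 39 UMIs, ratios of 5.25 (2.08 to 13.9), 2.7 (1.36 to 6.1) and 4.86 (2.31 to 11.4), and 6.05, 4.37 and 3.99 in unmixed nuclei. Rhoc was thus above sham control in each library and in both sets of nuclei. Hmgn1, a nucleosome-binding protein, was 4.85 times (1.88 to 13) its sham control level at day 1. The largest downward at day 1 were Atp13a5, a mural cell gene, Slc1a2, a glutamate carrier of astrocytes, and Plcl1. Atp13a5 and Plcl1 had 88 and 74 UMIs in the sham control nuclei, of which 2 and 1 lay in unmixed nuclei.

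At day 3 the 6 largest upward were Gm28438, Hs3st4, Epha6, Gm28928, Chrm3 and Mmp16. Hs3st4, Epha6, Chrm3 and Mmp16 stood in low-count droplets of day 3 at 326, 555, 329 and 329 CPM, above their 292, 340, 211 and 198 CPM in the endothelial nuclei. Gm28438 had 224 UMIs at day 3 and none in the other libraries, while mt-Nd3, a mitochondrial gene, had 113, 8, 0 and 54. In the low-count droplets the same switch was seen, with Gm28438 at 119 CPM and mt-Nd3 at 0 at day 3, and mt-Nd3 between 103 and 125 CPM elsewhere. Whether the day 3 library was counted with another index or annotation was not tested, and each day 3 ratio carries that limit. The 4 libraries list the same genes, and over all UMIs of each library these were the 2 genes, of 8609 that reached 20 CPM in some library, that stood at least 50-fold above or below all 3 others, limits set after the values were seen. The other genes with the largest downward ratios at day 3 included Art3, Alpl, Rtp4 and Tbxa2r, of which Art3 had 3 UMIs in unmixed sham control nuclei against 28 in all.

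At day 7 the largest upward under the same limits were Dstn, Mrfap1, Rhoc, Coro2a, Kcnt2 and Zmynd8. Dstn, which severs actin filaments, had 5, 2, 38 and 28 UMIs, the last in 13 nuclei, with a day 7 ratio of 6.28 (2.39 to 20.8). The largest downward were Ppia, Il31ra, Polr2f, Kcnb2, Uri1 and Copb2. Ppia, a peptidyl-prolyl isomerase, stood at 240, 175, 116 and 20.2 CPM, and the low-count droplets ran likewise from 325 CPM in sham control through 142 and 112 to 42.6 at day 7. Il31ra moved with its droplet level too, at 126 and 20.2 CPM in the nuclei and 130 and 25.4 in the droplets of sham control and day 7.

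When the ranking was repeated over unmixed nuclei and genes above their droplet level, a choice made after the values were seen, Ifitm2 and Apold1 were among the highest at day 1, and at day 3 Il1r1 and Rhoc came next after Gm28438, the gene of the switch above. Apold1, a regulator of endothelial contacts, stood at 116 CPM in unmixed sham control nuclei and 430 at day 1, a ratio of 3.73 (1.41 to 10.9). Over all endothelial nuclei it stood at 174 and 306 CPM, and the ratio of 1.76 (0.857 to 3.43) had an interval that held 1. At day 3 Jag2 was among the lower genes, and at day 7 Atp1b3 and Vtn were among the highest. Vtn and Atp13a5 are genes of pericytes, and unmixed day 7 nuclei held Vtn at 1026 CPM and Atp13a5 at 250 CPM against 231 and 33 CPM in sham control, beside mural markers that were higher in the same nuclei. Over all endothelial nuclei the order was the opposite, with Vtn at 1496 CPM in sham control and 1172 at day 7, and Atp13a5 at 529 and 384.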

How the data were processed

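The 4 libraries of nuclei were examined, 1 for each of the sham control, day 1, day 3 and day 7 groups that the labels name. Per the labels and the study's methods, the authors mapped droplet-based 3′ reads to GRCm38 with STAR 2.7.3a in its single-cell mode, counted exonic and intronic reads per gene of GENCODE vM8 and deposited raw UMI counts, unfiltered and not normalized, for 46983 genes. The strand setting is not given in the sources used here, so overlapping genes are uncertain.

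The counts were read in Python 3.11.15, and no cell calling or doublet calling was run. Nuclei were chosen by the marker rule, their UMIs summed per library and divided by the summed total (CPM). Levels have exact Poisson intervals, ratios exact conditional binomial intervals and shares Clopper-Pearson intervals. With 1 library a group no test was made. Ratios past 2-fold were counted among genes with at least 20 UMIs over both sums, and sums under 3 UMIs were set to 3 for ranks, medians and counts. Against other barcodes, their sums under 3 UMIs were set to 3.

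Named genes are the 7 markers, genes of the fixed lists past 2-fold or with most UMIs, the 6 largest ratios in each direction for day 3 and day 7 and 3 for day 1 (a UMI in at least 5 nuclei, or 3 for day 1, and at most 50% of UMIs in 1 nucleus), and, with the 7 markers left out, the 15 largest ratios to other barcodes (at least 20 UMIs in at least 10 nuclei). Genes outside it were chosen after their values were seen. The members and lists were chosen with earlier results of these data known. Of the list genes 1, Diaph3, was not found. All 469 identifiers looked up matched GENCODE vM21 (GRCm38). Alternatives, with TMM factors from edgeR 4.0.16, are given below. The calculation was tested on simulated sums. Some genes that the rule names are not reported here.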

Additional observations from a re-analysis of the deposited data

How the results depend on the processing

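No paired analysis was possible because each group held 1 library and the results come from no test. Of the shares and gene counts, 70 alternative values stayed near the reported one and 44 did not. The sham control share was 1.31% with at least 2000 UMIs. With non-neuronal barcodes as denominator the shares were 6.21%, 2.2%, 9.19% and 3.77%. Unmixed nuclei made up 0.943%, 0.499%, 1.23% and 0.516% in the 4 libraries, and 0.314%, 0.249%, 0.428% and 0.0573% once nuclei passing any other class, Rgs5 and Vtn included, were left out. Among barcodes with more than 500 and at most 1000 UMIs they were 1.86%, 0.0242%, 0.265% and 0.253%, from 5, 1, 11 and 2 passing of 269, 4137, 4149 and 791.

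Counts of genes past 2-fold moved with the nuclei, the minimum and free RNA, and the number of genes tested moved with the first 2 as well. Higher and lower genes numbered 19 and 21 of 72 at day 1, 64 and 145 of 1253 at day 3 and 7 and 5 of 37 at day 7 without nuclei of another class, which left 7, 3, 16 and 1 nuclei. In unmixed nuclei they numbered 86 and 85 of 884, 302 and 159 of 3546, and 98 and 83 of 1347. With at least 40 UMIs they numbered 66 and 101 of 989, 466 and 131 of 4468, and 60 and 45 of 1693. With at least 10 UMIs 627 were higher at day 1, 807 lower at day 3, and 536 higher and 744 lower at day 7. With the mean of nuclei 321 were higher at day 1 and 394 lower at day 7. After subtraction of free RNA 359 were higher and 1722 lower at day 3 and 507 lower at day 7, or 367, 2165 and 575 with the profile of droplets of at most 100 UMIs. The split of higher against lower at day 3 thus turned, and the cause was not tested.

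Directions that turned are given as log2 ratios. With the mean of nuclei, at day 3 Kcnt2 was -0.34, Gja4 0.086 and Mki67 -0.47, and Rtp4 at day 7 was 0.015. Mki67 had no sham control UMI, so its turned sign comes from the floor of 3 UMIs. With the second free-RNA profile Kcnt2 at day 3 was -0.19. Without nuclei of another class, day 3 gave 0.12 for junctions, 0.47 for Notch, 0.55 for arterial genes, -0.35 for Zmynd8, -0.42 for Sdcbp, -0.29 for Vegfc, -0.49 for Litaf and -0.23 for Ecscr. The same choice at day 7, where it left 1 nucleus, gave 0.29 for the rule markers, -0.29 for other endothelial genes, -1.15 for adhesion and inflammation, -1.995 for interferon and MHC, -1.01 for matrix and -2.07 for hypoxia and stress. Without the deepest nucleus, capillary genes at day 1 were 0.023 and transporters at day 7 -0.0155. The latter was the same without the nucleus with most UMIs of the list in both libraries. In unmixed nuclei, Vtn at day 1 was 0.41 and at day 3 1.27, Apold1 at day 3 0.069, Sema3g 0.52 and Atp13a5 1.48, and at day 7 venous genes were -0.42 and adhesion and inflammation -0.15.

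Of single named genes, 1003 alternative values kept direction and the side of 2-fold, 116 kept direction only and 16 turned. The day 1 values rest on 7 nuclei.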
